A study of Malus domestica with 2 samples.

Results

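The genes described here are 31 apple gene models of phenylpropanoid, lignin and flavonoid metabolism, out of 63541 in the deposited table. They were found by words in the annotation (names of ammonia-lyases, cinnamate, coumarate, cinnamyl, chalcone, flavonol, anthocyanidin, laccase, dirigent and O-methyltransferase proteins), together with MDP0000271553, which is matched to the Arabidopsis gene AT1G61720. A model was kept if it had at least 1 mapped sequence over both libraries or stood on one of the 2 deposited sheets of differing genes. Of 64 models found, 33 had neither. The material was pedicel, the fruit stalk, of Malus domestica cultivar Saika, which the series title calls a self-abscising apple. One group is the central pedicel and the other the lateral pedicel, with 1 library each, made from mRNA and sequenced on a Roche 454 GS-FLX pyrosequencer. The labels give no age, date, treatment or number of trees, and with 1 library per group no difference below has a replicate check.

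Phenylalanine ammonia-lyase opens the phenylpropanoid pathway by turning phenylalanine into cinnamate, which cinnamate-4-hydroxylase and 4-coumarate:CoA ligase convert into activated coumarate. From there a monolignol branch of reductases, dehydrogenases and O-methyltransferases supplies the alcohols that laccases and peroxidases polymerise into lignin. A flavonoid branch starts with chalcone synthase and chalcone isomerase. It leads to flavonols and, through dihydroflavonol reductase, to anthocyanins and the flavan-3-ols behind condensed tannins. In stalks, lignin strengthens xylem and fibres, and apple tissues are known for their flavan-3-ols and flavonols.

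Both libraries were shallow, with 18483 mapped sequences for the central and 18368 for the lateral pedicel. Per the column names, the input that was counted is a trimmed set of contigs, so a count need not equal a number of transcripts or reads. A count of 0 allows up to 3 sequences, or 0.0162% of the central and 0.0163% of the lateral library. As checks on the tissue, models with words of chloroplast-bearing cells held 25 central and 26 lateral sequences, words of xylem and secondary wall 10 and 13, and words of epidermis and cuticle 24 and 27. Words of dividing cells held 108 and 95 sequences and pollen words 26 and 30. Of all entries on the deposited sheets, headed CP and LP, 53.2% are on CP. The xylem words, with 71 models, found 0 CP and 6 LP entries, and the chloroplast words, with 101 models, 9 and 20. The epidermis and cuticle words (139 models) found 11 CP and 2 LP entries. The words of dividing cells (297 models) found 5 and 6, and the pollen words (99 models) 6 and 5. Their part in the counts of pathway genes below was not tested. In a bulk library, fewer cells of a type and less RNA per cell cannot be told apart.

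The members held 22 central sequences, 0.119% of that library (95% exact Clopper-Pearson interval 0.0746% to 0.180%), and 29 lateral sequences, 0.158% (0.106% to 0.227%). These intervals overlap and cover counting error only. No member had more than 3 sequences in a library, and 7 of the 31 had none in either. Of the 24 with a sequence, 6 had more in the central library, 10 had more in the lateral library and 8 had equal counts. Over all 18337 gene models with a sequence, the central count was the higher one in 36.2% and the lateral count in 35.4%. Of the 9 members with exactly 1 sequence in all, 4 are on neither sheet and lie just inside the limit set on the members, and the 33 models at 0 sequences and on neither sheet lie just outside it. No fold is computed from the counts of any member, since every count is at or under the 3 sequences that a count of 0 allows. The authors' log2 ratios, which 3 members have, are given below as deposited. The counts of those members lie within the same limit.

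**Figure D1:**
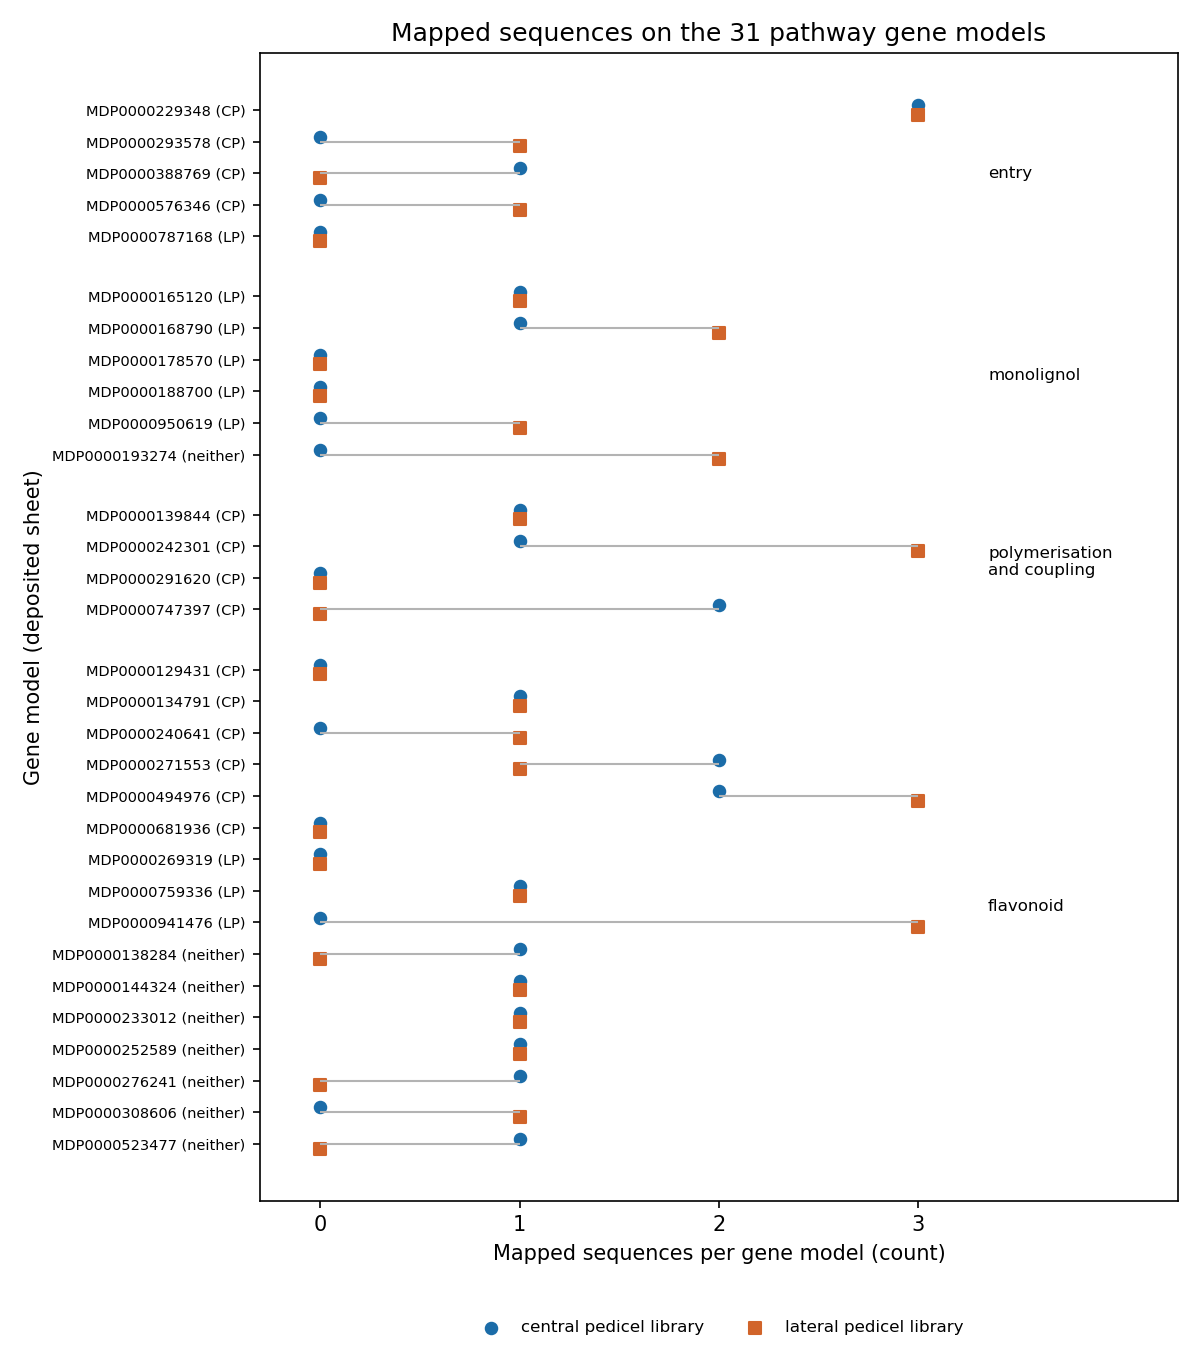
Mapped sequences (count, x axis) on each of the 31 gene models (y axis, with the deposited sheet in brackets), grouped by role; circles are the central and squares the lateral library. All values lie between 0 and 3, and the widest gap is MDP0000941476 with 0 central and 3 lateral sequences.

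The authors' 2 sheets of differing genes, headed CP and LP, are listed as found with the NOISeq program. They held 23 members, 14 on CP and 9 on LP. The CP sheet takes in 1.33% and the LP sheet 1.17% of all gene models in the table. The members make up 1.66% of CP entries and 1.21% of LP entries. These are shares of a sheet, so they do not compare with the shares of the table just given. Their base is 31 members among 63541 gene models. Of the members on a sheet, 60.9% were on CP, against 53.2% of all 1585 entries. Standing on a sheet was part of how members were chosen, so these shares describe the set and test nothing. It also limits what could be seen, because most descriptions in the whole table are those of protein domains. For 21 of the 23 members on a sheet, the description in the whole table held none of the words, and there only the words chalcone and O-methyltransferase found any model, 25 and 18 of them. Relatives of the other enzymes that are on neither sheet would therefore not be among the members.

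The entries were counted by role, beside the 53.2% of all sheet entries that are on CP. Of the entry enzymes, 4 were on CP and 1 on LP. Of the monolignol branch, 0 were on CP and 5 on LP, of which 4 are O-methyltransferases and 3 of those are copies of the same Arabidopsis match, so without them 1 LP entry is left. Laccase and dirigent genes stood at 4 and 0, and the flavonoid branch at 6 and 3. These roles were set with earlier results of these data known, standing on a sheet was part of the choice of members, and no difference between roles was tested.

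**Figure D2:**
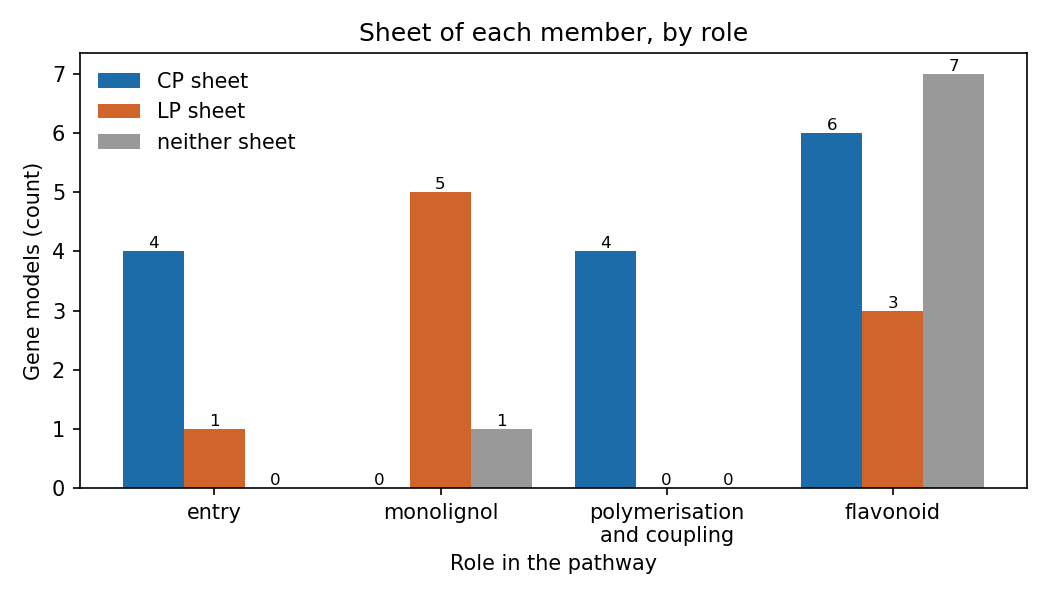
Number of members (y axis) on the CP sheet, the LP sheet or neither, by role in the pathway (x axis). The monolignol branch has 5 LP and no CP entries, and the laccase and dirigent group 4 CP and no LP entries.

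Among the entry enzymes, phenylalanine ammonia-lyase 1 had an entry on each sheet, both matched to AT2G37040. MDP0000388769, on CP, had 1 central and 0 lateral sequences and a deposited FDR of 3.58e-07. MDP0000787168, on LP, had 0 and 0 and a deposited FDR of 5.61e-12. The copies thus stood on opposite sheets, and at this depth the only sequence of either was central. The authors' deposited table of log2 ratios gives 3.66 for the CP copy and -2.31 for the LP copy. That table's first line states lateral over central, yet all 78 CP genes with a ratio are positive and all 113 LP genes are negative. The sign opposes the sheet names if it is read as stated, so no direction is taken from it.

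Cinnamate-4-hydroxylase, the P450 enzyme that hydroxylates cinnamate, had both of its entries on CP, matched to AT2G30490. MDP0000229348 had 3 central and 3 lateral sequences, the highest sum of all members, and a deposited FDR of 4.70e-08. MDP0000576346 had 0 and 1, with a deposited FDR of 1.03e-13. In neither of these models was the central count the higher one, although both are on the CP sheet. The models also differ in length, 1515 and 786 bases, so the same number of sequences gives unlike values per length. On the scale of RPKM (sequences per kilobase of model and per 1000000 mapped) MDP0000229348 stood at 107 in central and 108 in lateral pedicel, and MDP0000576346 at 0 and 69.3. The activating enzyme 4-coumarate:CoA ligase 3, which in Arabidopsis is tied to the flavonoid rather than the lignin branch, was MDP0000293578. It was on CP with 0 central and 1 lateral sequences and a deposited FDR of 9.94e-06, rank 763 of the 844 CP entries.

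In the monolignol branch all 5 entries were on LP, and none had more central than lateral sequences. Cinnamyl alcohol dehydrogenase 9, of the family that reduces cinnamyl aldehydes to the lignin alcohols, was MDP0000950619. It had 0 central and 1 lateral sequences and a deposited FDR of 0, as did 183 of the 741 LP entries. Its model is 441 bases long, the shortest of the members, and the single sequence corresponds to an RPKM of 123 in the lateral library. The words for cinnamoyl-CoA reductase, the step before it, found 0 gene models in the table or on the sheets.

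O-methyltransferase 1 had 3 LP entries, all matched to AT5G54160, the Arabidopsis caffeic acid O-methyltransferase that acts in syringyl lignin synthesis and also on flavonols. MDP0000168790 had 1 central and 2 lateral sequences and a deposited FDR of 5.98e-06. MDP0000178570 and MDP0000188700 had 0 and 0 each, with deposited FDRs of 1.69e-07 and 1.48e-07. The copy of 1077 bases was thus the one with sequences, while the copies without one are 594 and 711 bases long. A further LP entry, MDP0000165120 of the O-methyltransferase family and matched to AT4G35160, had 1 sequence in each library. Its substrate is not given by the annotation, so the family name alone placed it in this branch. The model MDP0000193274, with an O-methyltransferase N-terminal domain and on neither sheet, had 0 central and 2 lateral sequences. Summed over the 6 models of the branch, the central library held 2 sequences (0.0108%, exact interval 0.00131% to 0.0391%) and the lateral library 6 (0.0327%, 0.0120% to 0.0711%), and the intervals overlap. The broad word O-methyltransferase supplied 5 of these 6 models, and 17 others it found had no sequence and no place on a sheet.

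The laccase and dirigent genes, 4 in all, were on CP. Laccases are copper oxidases that couple lignin alcohols. Laccase 14, MDP0000242301, had 1 central and 3 lateral sequences with a deposited FDR of 3.48e-06, so the library with more sequences was not the one its sheet is named for. Dirigent proteins steer the coupling of phenolic radicals and many are also induced in defence, as the deposited description, disease resistance-responsive, records. MDP0000747397 had 2 central and 0 lateral sequences, an RPKM of 183 in the central library and the highest RPKM of any member. MDP0000139844 had 1 and 1, and MDP0000291620 had 0 and 0. Their deposited FDRs were 3.09e-14, 1.61e-14 and 3.36e-09. Only MDP0000747397 of the 3 had unequal counts. Neither sequence of MDP0000139844 was uniquely mapped, so its counts cannot be assigned to this model alone.

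The flavonoid branch, the widest part of the set with 16 models, held 12 central and 14 lateral sequences. MDP0000271553 is matched to AT1G61720, the Arabidopsis BANYULS gene, whose anthocyanidin reductase makes the epicatechin units of condensed tannin. It had 2 central and 1 lateral sequences, stood on CP with a deposited FDR of 0, and had a deposited log2 ratio of 2.95. It was the one flavonoid member with a deposited ratio, and the sheet name and the higher count point to the same library.

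Dihydroflavonol 4-reductase, MDP0000494976, which supplies both anthocyanins and tannins, had 2 central and 3 lateral sequences. Its deposited FDR was 4.89e-06, and it was on CP. Leucoanthocyanidin dioxygenase, MDP0000240641, the anthocyanidin synthase, had 0 central and 1 lateral sequences and a deposited FDR of 3.80e-11 on CP. Flavonol synthase 1, MDP0000681936, had 0 and 0 and a deposited FDR of 5.29e-09 on CP. All 4 of these enzymes of the branch were therefore on CP, while the counts of 1 were higher in central, of 2 in lateral and of 1 were 0.

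Members of the chalcone isomerase family were on both sheets. MDP0000759336, matched to AT3G55120, the Arabidopsis TT5 gene of chalcone isomerase itself, was on LP with 1 sequence in each library and a deposited FDR of 0. MDP0000134791, matched to AT5G05270, a chalcone isomerase-like protein without the enzyme's own activity that promotes flavonoid synthesis in Arabidopsis, was on CP with 1 and 1 and a deposited FDR of 2.22e-11. MDP0000129431, matched to AT1G53520, a plastid fatty-acid-binding protein in Arabidopsis, was on CP with 0 and 0 and a deposited FDR of 1.90e-09. MDP0000941476, described as a family member and matched to AT5G66230, had 0 central and 3 lateral sequences, an RPKM of 150 in the lateral library, and a deposited FDR of 1.03e-09 on LP. Its sequences lay in the library its sheet is named for. The family name thus covers proteins of unlike function, and its entries were split between the sheets.

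The other 7 flavonoid members were known only by a chalcone isomerase domain and were on neither sheet. MDP0000138284, MDP0000276241 and MDP0000523477 had 1 central and 0 lateral sequences, and MDP0000308606 had 0 and 1, a sequence that was not uniquely mapped. MDP0000144324, MDP0000233012 and MDP0000252589 had 1 in each library. For chalcone synthase, the enzyme before the isomerase, the words found 3 models with a chalcone and stilbene synthase domain. These had 0 sequences and no place on a sheet. Models of it on neither sheet whose description names another domain would not have been found. The last flavonoid member, MDP0000269319, is described as dihydroflavonol 4-reductase-like1 and was on LP with 0 and 0 sequences and a deposited FDR of 2.26e-06. Its match, AT4G35420, acts in Arabidopsis in making the pollen wall polymer sporopollenin, so the name placed it among the flavonoid genes without that role.

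**Figure D3:**
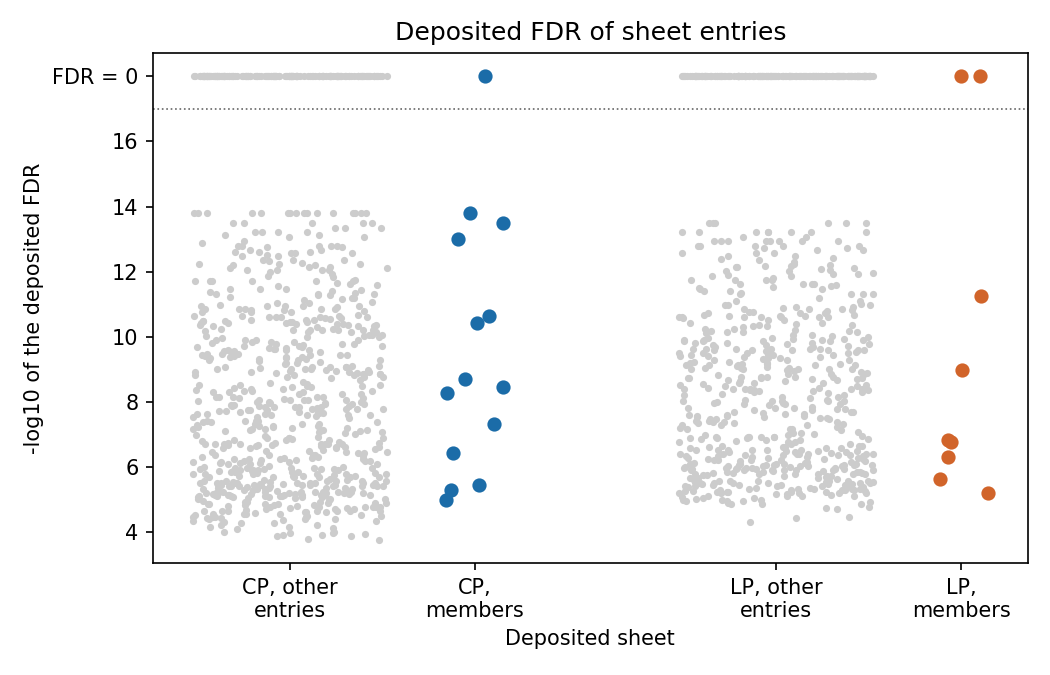
Deposited FDR (as -log10, y axis) of members and of all other entries on each sheet (x axis); each point is a gene model, and entries with a deposited FDR of 0 are drawn above the dotted line. Members reached an FDR of 9.94e-06 on CP and 5.98e-06 on LP, and all entries 0.000172 and 4.78e-05, with 1 CP and 2 LP members at an FDR of 0.

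The deposited FDR of the members covered much of the range of their sheets. The median FDR of the 14 CP members was 2.63e-09 and that of all CP entries 1.33e-09. For the 9 LP members it was 1.48e-07 and for all LP entries 4.53e-10. In rank, the members ran from 1 to 763 of 844 on CP and from 1 to 708 of 741 on LP. Their median rank was 437 on CP, against 421 for all entries, and 530 on LP, against 371. By median the LP members thus stood further down their sheet, which was not tested.

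The sheets and the counts of the whole table were then set side by side. Of the 14 CP members, 3 had more central sequences (MDP0000271553, phenylalanine ammonia-lyase MDP0000388769 and dirigent MDP0000747397), 5 had more lateral ones, 3 were equal and 3 had none. Of all CP entries whose counts differed, the central count was higher in 67.7% and the lateral count in 32.3%. Of the 9 LP members, 3 had more lateral sequences, 0 had more central ones, 2 were equal and 4 had none. Of all LP entries whose counts differed, the lateral count was higher in 66.8%. Entries with no sequence made up 22.5% of CP and 21.5% of LP. Summed, the CP members held 13 central and 15 lateral sequences, and the LP members 3 and 8. With 8 and 3 members of unequal counts, 1 sequence more or less on a few models would change these splits, and how the sheets' values relate to the table's counts is not given in the sources used here.

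**Figure D4:**
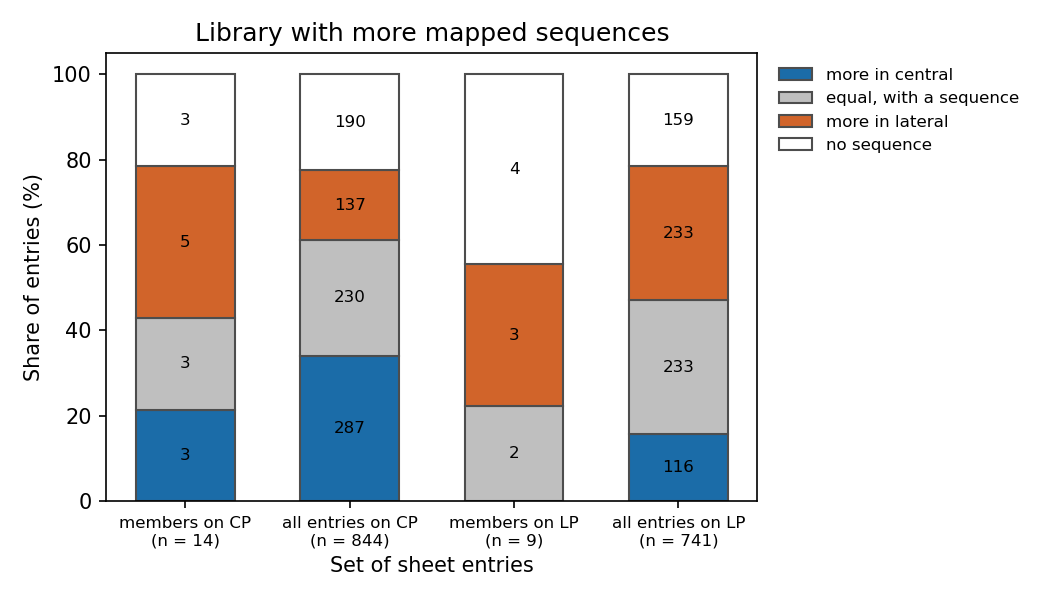
Share of entries (%, y axis) with more central sequences, equal counts, more lateral sequences or no sequence, for members and all entries of each sheet (x axis); numbers in the bars are gene models. Among CP members 3 had the higher central and 5 the higher lateral count, against 287 and 137 of all CP entries.

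No member could be tested on its counts. The Fisher exact test was fitted over all gene models with at least 10 sequences, of which there were 24, and 0 were called (0% of those tested). None of the 31 members reached 10 sequences, so the test says nothing of whether they differ. The authors' deposited table also holds Kal's Z-test, whose FDR was under 0.05 for 16 members, 6 with the higher central and 10 with the higher lateral value. These are exactly the 16 members with unequal counts, single sequences included. Over all gene models that test calls 9.8% higher in central and 9.71% higher in lateral, and among those with a sequence 67.6% in either direction.

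Among members that share a gene match or a family, features other than counts were compared. The 23 members on a sheet have 19 different Arabidopsis matches, and 3 matches have more than one copy. The copies of cinnamate-4-hydroxylase and O-methyltransferase 1 each stood on a single sheet, and those of phenylalanine ammonia-lyase on both. The deposited gene ontology terms of 9 members include oxidation-reduction. Of the 23 members on a sheet, 4 have no term, and terms of the 8 on neither sheet were not analysed here. Terms for flavonoid, phenylpropanoid or lignin metabolism occurred in 0 of them. MDP0000271553, MDP0000494976 and MDP0000269319 share a set of gene ontology terms and an NAD(P)-binding domain. Model lengths ran from 441 to 2379 bases with a median of 1005, and 92.2% of all models in the table have a length divisible by 3, so these are mostly coding lengths.

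Other genes of the pathway came from word lists outside the members. Their sheet entries stand beside the 53.2% of all sheet entries that are on CP, and no split was tested. The shikimate and aromatic amino acid genes, which supply phenylalanine, numbered 39 models, 9 of them with a sequence, and held 10 central and 13 lateral sequences. On CP were chorismate mutase 2, MDP0000191851, and a class-II DAHP synthetase, MDP0000749719, each with 1 central and 2 lateral sequences. On LP were a dehydroquinate dehydratase/shikimate dehydrogenase, MDP0000176374, with 2 and 2, and a shikimate kinase-like gene, MDP0000264891, with 0 and 0. Peroxidases, the other lignin-coupling enzymes, had 2 CP and 0 LP entries, MDP0000176436 and MDP0000192235, both without a sequence, and all 74 models together held 15 and 16. Words for hydroxycinnamoyl, caffeoyl, ferulate, lignin and stilbene genes found only the 3 models with the chalcone and stilbene synthase domain. These had 0 sequences and no place on a sheet, as given above.

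Domain families that hold pathway enzymes beside many others numbered 425 models, 415 of them on neither sheet. They had 8 CP and 2 LP entries, beside the 53.2% of all sheet entries that are on CP. On LP was MDP0000191488, whose annotation lists quercetin glucosyltransferases among other enzymes, with 2 central and 1 lateral sequences. The other LP entry, MDP0000221435, a cytochrome P450 of family 82, had 1 and 2. MDP0000286933, a cytochrome P450 matched to AT5G07990, the Arabidopsis TT7 gene of flavonoid B-ring hydroxylation, was on CP. It had 1 central and 2 lateral sequences, a deposited FDR of 3.11e-07 and a deposited log2 ratio of 2.49. UDP-glucosyl transferase 88A1 had 2 CP entries, of which MDP0000318032 had 4 central and 2 lateral sequences and a deposited log2 ratio of 2.57. Its description in the whole table is Longin-like, so the annotations of this model disagree. MDP0000294531, the other entry, had 0 and 1.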

How the data were processed

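Each pedicel type had 1 library of mRNA sequenced on a 454 GS-FLX instrument. The authors deposited counts of total and of unique sequences per gene model for each library, together with RPKM. What was counted is headed as all contigs, trimmed, per the file headers. RPKM equals the deposited count per kilobase and per 1000000 sequences in all 63541 models. The deposited p-value and FDR columns come from Kal's Z-test in the whole table and from NOISeq on the CP and LP sheets, per the file headers. The authors deposited log2 ratios for some genes, stated in the file header as lateral over central. For the aligner, gene model release and NOISeq settings, details were not given in the sources used here. A further 12 columns of the libraries were not used. None of the members' identifiers (0 of 31) occurs in the RefSeq gene table, so no positions or sequences are given.

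Members and lists were chosen with earlier results of these data known. Counts were tested with a two-sided Fisher exact test against the rest of each library, with Benjamini-Hochberg adjustment over models with at least 10 sequences, an adjusted p under 0.05 and at least 2-fold (0.5 added). It compares these 2 libraries, not the pedicel types. edgeR's quasi-likelihood test cannot be fitted without replicates, so edgeR 4.0.16 (R 4.3.3) ran its negative binomial exact test with an assumed coefficient of variation of 0.4. Intervals are 95% exact. All members on a sheet or with a deposited ratio, and the 4 with the most sequences per role, were named by rule; the rest were named to account for every member. Python 3.11.15, numpy 2.4.6, pandas 2.3.3, scipy 1.17.1 and matplotlib 3.10.9 were used.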

Additional observations from a re-analysis of the deposited data

How the results depend on the processing

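Of 25 alternative values, 20 stayed within the limits set for a change and 5 moved. The number of members called stayed at 0 without a count minimum, with unique sequences, without scaling, with 1 added to each count and with edgeR's negative binomial exact test. As no member reached 10 sequences, the last 4 of these settings could only give 0. Without a count minimum, at most 3 sequences in a library were too few for an adjusted p under 0.05. None of these settings is a sign of stability, although they are among the 20. Restricted to members with at least 2 sequences, 2 had the higher central and 5 the higher lateral count, in place of 6 and 10. With the deposited RPKM in place of counts, 18 were higher in the lateral library, since its smaller total makes equal counts unequal. On the LP sheet 5 of the 9 members had a sequence, and 5 remained without O-methyltransferases. The CP count ran from 11 to 14. No paired analysis was possible because each group has 1 library. Leaving out a library would leave no comparison. Depth limits every value here, as no member has over 3 sequences in a library.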
